A study of Homo sapiens with 16 samples.

Results

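The MYC family loci are the chromatin around MYC, MYCN and MYCL, the 3 genes that encode the c-, N- and L-forms of the MYC transcription factor. An interval of the shared peak table was taken as a member if it overlapped one of these genes or lay within 100 kb of one of their GENCODE release 44 transcript starts. This gave 29 of 74404 intervals, of which 10 lay at MYC, 6 at MYCN and 13 at MYCL. The rule uses positions only and no measured signal, but the genes were chosen with earlier results of these data known. The measurements were CUT&Tag libraries, in which an antibody directs a transposase to cut and tag the DNA beside its target, from HEK293, a human embryonic kidney line. All 16 libraries were labelled with an eGFP-YAP genotype, so the vehicle controls carried the same tagged YAP as the treated cells. How the tag was introduced, and whether the line is 1 clone, is not given in the sources used here. The cells received either vehicle, or 200 mM sorbitol for 1 h, a hyperosmotic stress, and the series design places serum starvation before it. Column names give vehicle an earlier time point than sorbitol, and whether vehicle cells were harvested at the same time is not stated. If they were not, treatment and harvest time cannot be told apart. Antibodies were directed to CTCF, RAD21, H3K27ac or GFP, the last reading eGFP-YAP in libraries labelled YAP1. Each target had 2 vehicle and 2 sorbitol libraries, numbered as replicates. Nothing in the labels says that they came from separate cultures, so the p-values measure the spread between these libraries, which may be technical.

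MYC, MYCN and MYCL are basic helix-loop-helix leucine zipper proteins that bind E-box DNA as heterodimers with MAX and raise the transcription of genes for growth, ribosome production and metabolism. MYC is expressed in most dividing cells, MYCN chiefly in embryonic and neural tissue, and MYCL in a narrower set of tissues. CTCF is a zinc finger protein that marks boundaries and anchors of chromatin loops, and a CTCF site just upstream of MYC is known as a docking site for its distal enhancers. RAD21 is a subunit of cohesin, the ring that extrudes loops and halts at CTCF. YAP is the coactivator of the Hippo pathway, which acts through TEAD factors, and H3K27ac is a histone mark of active promoters and enhancers.

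On hg38, MYCN (ENSG00000134323.13) lies at chr2:15940550-15947007 on the plus strand and MYCL (ENSG00000116990.12) at chr1:39895428-39902256 on the minus strand. Coordinates of MYC are given with its results. Intervals are numbered along each chromosome, from MYC-1 to MYC-10, MYCN-1 to MYCN-6 and MYCL-1 to MYCL-13. A promoter interval lay within 1 kb of a transcript start of any gene, and the others are called distal. By this definition 16 member intervals were promoter intervals and 13 were distal, against 33.8% promoter intervals over the whole table. The CTCF consensus, a 14-base motif searched on both strands with at most 1 mismatch, was present in 4 of the 29 intervals, MYC-2, MYCL-1, MYCL-8 and MYCL-13, and in 18.4% of all intervals.

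The best CTCF match within each of several intervals outside the MYC locus is shown. These are the 3 MYCL intervals with the consensus, and MYCL-9 and MYCN-2, where CTCF was called lower, as described further on. Each sequence is 30 bases of hg38 read 5′ to 3′ on the strand of the match, with the 14 matched bases in capitals. MYCL-1 and MYCL-13 match without a mismatch, MYCL-8 with 1, MYCL-9 with 2 and MYCN-2 with 3.
MYCL-1, chr1:39816975-39817004, plus strand: gtttgtgtCCACCAGGGGGCAGagagaggc
MYCL-13, chr1:39973677-39973706, minus strand: cctttcttCCAGCAGGTGGCGCcaaagctg
MYCL-8, chr1:39902399-39902428, minus strand: gctgagggCCGCCAGGTGGCGCgtttccct
MYCL-9, chr1:39919666-39919695, plus strand: aattctgtCCACTAGAGGGAAAcccagtct
MYCN-2, chr2:15939698-15939727, plus strand: gcccattcCCCCTAGGAAGCAGagccaggc

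The 250 bases before the MYCN start (RefSeq, GRCh38.p14, chr2:15940300-15940549, plus strand) lie inside MYCN-2, the interval with the largest CTCF loss at these loci, and are shown for that reason. Capitals mark the pentamer CCCTC on either strand, after which CTCF is named, and the E2F-type element TTTGGCGC.
MYCN promoter: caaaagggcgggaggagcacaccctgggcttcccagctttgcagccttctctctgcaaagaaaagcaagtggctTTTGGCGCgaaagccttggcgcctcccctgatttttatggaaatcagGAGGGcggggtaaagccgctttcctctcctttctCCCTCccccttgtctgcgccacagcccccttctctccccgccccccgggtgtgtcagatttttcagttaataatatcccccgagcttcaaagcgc
CCCTC occurred 2 times on both strands together in this window, and 66.6% of 35116 RefSeq promoter windows of the same length held it at least 1 time. TTTGGCGC occurred 1 time here and in 0.55% of windows. The GC box GGGCGG occurred 3 times, 1 of them overlapping a CCCTC match, and was found in 42.6% of windows. The E-box CACGTG, the site that MYC and MAX bind, was not among the letters of this window and was found in 6.34% of windows.

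Library totals ran from 1.19 to 8.84 M counts (M, 1e+06). CTCF totals were 3.33 to 4.51 M with vehicle and 2.84 to 2.96 M with sorbitol, RAD21 totals were the lowest and H3K27ac totals the highest. Mitochondrial intervals took 15.7% to 19.9% of CTCF counts with vehicle and 32.8% to 33.9% with sorbitol. Their share moved the same way for RAD21 and eGFP-YAP but was 1.95% to 2.08% for H3K27ac, and its part in the results was not tested. Levels are counts per M (CPM) on library sizes scaled by the trimmed mean of M-values (TMM), which centres each target's log2 fold changes near 0. Scaling to total counts instead moved the median change over all tested intervals from −0.06 to −1.04 for CTCF, from −0.01 to −0.60 for RAD21, from −0.04 to −1.46 for eGFP-YAP and from 0.02 to 0.17 for H3K27ac. Every change below is therefore relative to the other intervals of the same target. H3K27ac at promoters of the HEK293 marker list (7 of 7 genes with an interval, PAX2 and LHX1 among them) summed to 462 to 552 CPM. The highest in that list were VIM at 66 to 160 CPM, KRT8 at 110 to 119 CPM and CDH2 at 132 to 154 CPM. NEFM was the lowest, at 4.54 to 11.9 CPM. The list for HCT116 colon cells, the other line of the series, summed to 226 to 232 CPM from 4 of 6 genes, with no promoter interval for CDX1 or VIL1. In that list CDX2 had 151 to 156 CPM and LGR5 45.9 to 51.3 CPM, and EPCAM and CDH1 had less. PAX2 had 35 to 42.7 CPM and LHX1 37.6 to 47.4 CPM, so the lists overlapped marker by marker. Of 3 blood markers 1 had an interval, at 10.3 to 13.7 CPM, and the liver marker ALB had none.

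With sorbitol, CTCF fell at the start of MYCN and at an intergenic site upstream of MYCL. In the main fit it rose at the MYCL start and at the starts of PVT1 and MFSD2A. These 3 rises depended on processing and were called in 7, 1 and 6 of 13 alternative analyses. eGFP-YAP fell at a site inside PVT1, and H3K27ac fell at the PVT1 start and in MYCN and rose at a neighbouring site in PVT1. In a fit on all 16 libraries none of these H3K27ac changes was called. The H3K27ac rise was also lost with DESeq2, and the H3K27ac fall in MYCN with a correction for GC content. Calls are from the quasi-likelihood test of edgeR on raw counts, at a Benjamini-Hochberg adjusted p under 0.05 over all tested intervals of a target. For CTCF, 14 of the 29 intervals passed the filter on low counts and 5 were called (35.7%), 3 higher and 2 lower, against 40.2% of all tested intervals called in either direction, 19.5% higher and 20.7% lower. For RAD21, 8 were tested and 0 called by edgeR or by DESeq2, with 2 at an unadjusted p under 0.05, against 4.79% of all tested. For eGFP-YAP, 10 were tested and 1 was called lower, against 6.83% in either direction and 1.49% lower. For H3K27ac, 24 were tested and 3 called (12.5%), 1 higher and 2 lower, against 23.1% in either direction, 8.59% higher and 14.5% lower. The members' shares for CTCF and H3K27ac were thus not above those of the table as a whole. With total-count scaling, CTCF had 6 lower calls, eGFP-YAP 4 and RAD21 2, each with 0 higher, and H3K27ac had 2 in each direction.

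**Figure D1:**
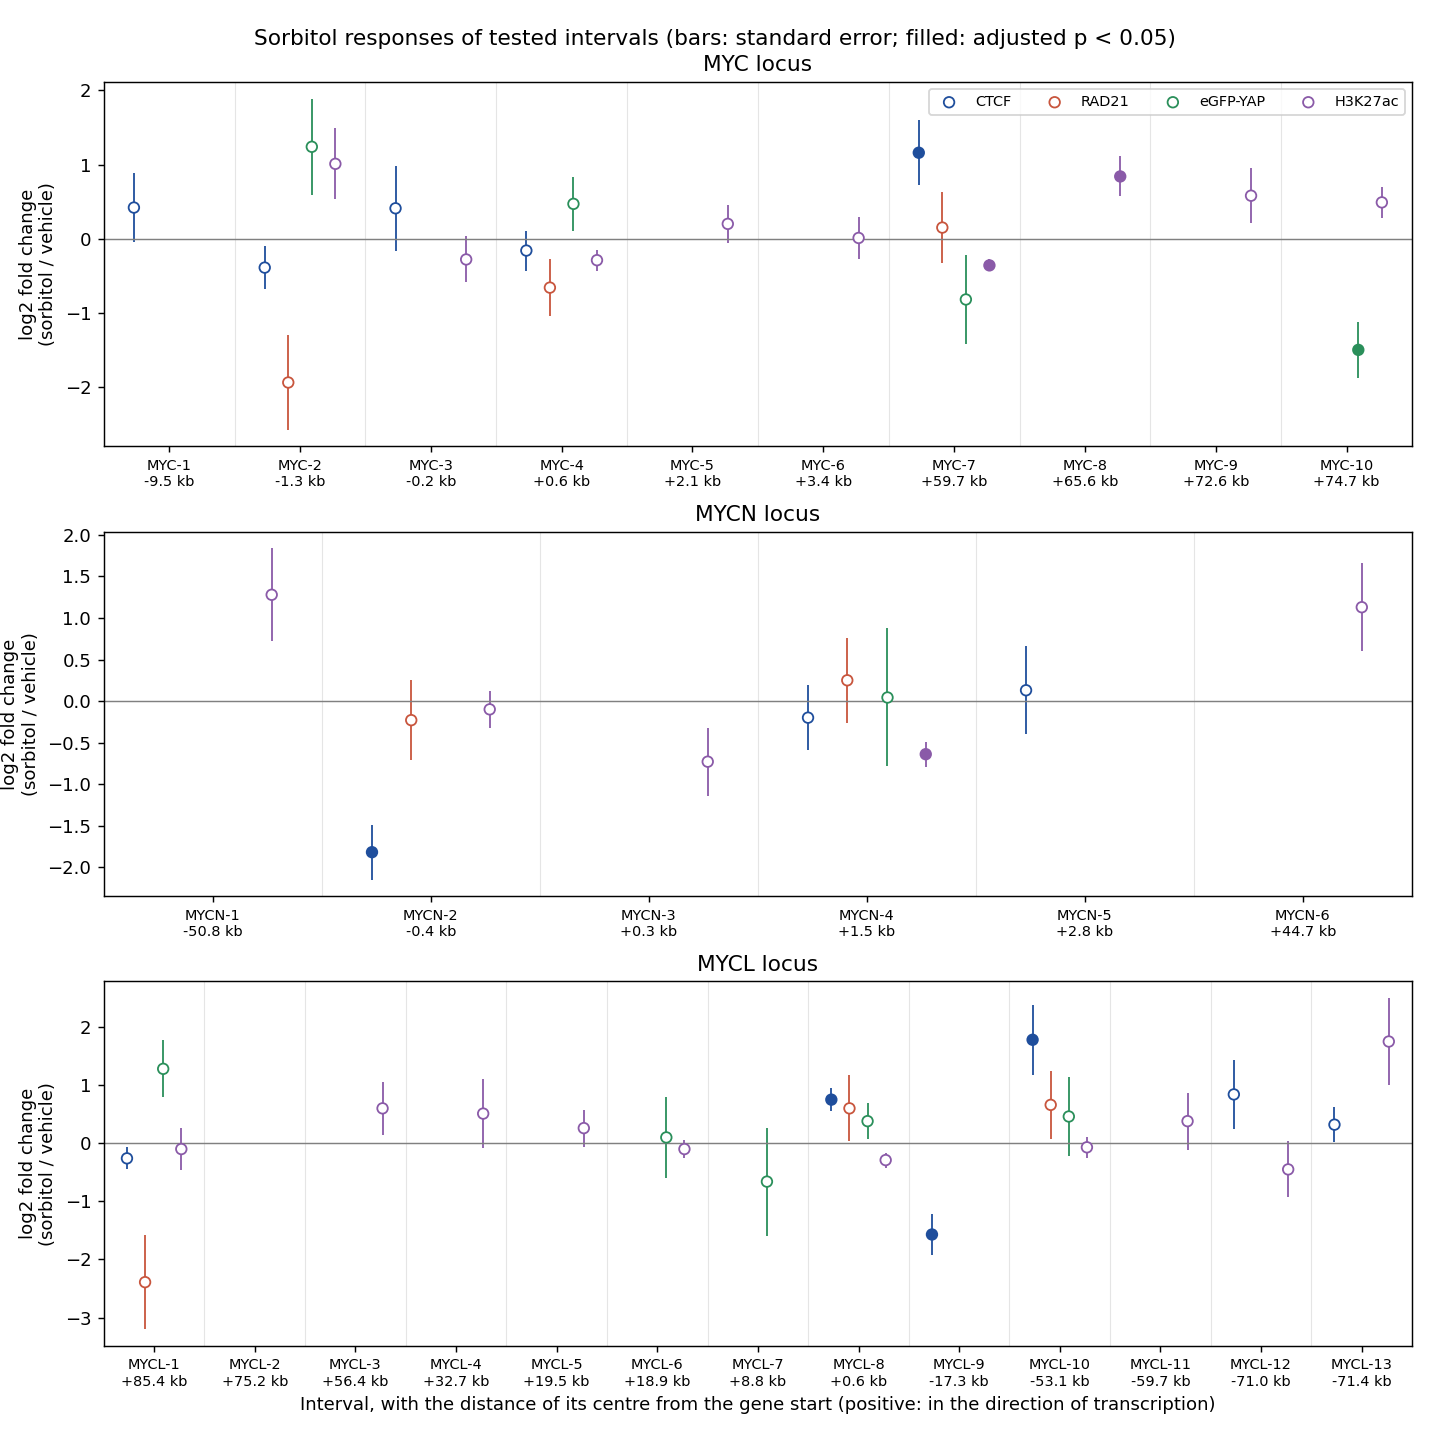
Log2 fold changes, sorbitol over vehicle, of the tested intervals at MYC (top), MYCN (middle) and MYCL (bottom), with standard errors. The x axis lists the intervals in chromosome order with the distance of their centre from the gene start in kb. Colours give the target and filled points the calls, which are 5 for CTCF, 1 for eGFP-YAP and 3 for H3K27ac.

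MYC (ENSG00000136997.22) lies at chr8:127735434-127742951 on the plus strand of hg38. At MYC, the only interval with the CTCF consensus was MYC-2 (chr8:127733854-127734357), an exon of the antisense noncoding gene CASC11, 1077 bp before the nearest MYC start. Its CTCF counts were 111 and 73 with vehicle and 30 and 22 with sorbitol, or 17.2 ± 0.0285 and 13.2 ± 3.34 CPM (SD, n = 2 here and throughout). Both sorbitol libraries lay below both vehicle libraries, but the log2 fold change of −0.39 ± 0.29 (SE, here and throughout) was not called (adjusted p = 0.29). RAD21 at the same site had counts of 57 and 22 with vehicle and 9 and 1 with sorbitol. Its level of 20.2 ± 0.94 CPM with vehicle was above that of 95.2% of tested intervals per kb, and with sorbitol it was 5.00 ± 5.47 CPM. The groups did not overlap, and the log2 fold change of −1.94 ± 0.64 had an adjusted p of 0.096 with edgeR. Leaving out RAD21 libraries gave −3.97 (adjusted p = 0.0043, edgeR) without sorbitol replicate 1, −1.07 (0.36) without sorbitol replicate 2, and −1.88 (0.23) and −1.87 (0.21) without vehicle replicates 1 and 2. H3K27ac was low there, at 1.71 ± 1.05 and 3.47 ± 1.24 CPM, and so was eGFP-YAP, at 2.33 ± 1.06 and 5.77 ± 1.42 CPM.

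The start region of MYC itself, MYC-4 (chr8:127735635-127736481, untranslated and coding sequence), carried all 4 targets and no call. CTCF was 18.2 ± 1.01 CPM with vehicle and 16.4 ± 3.82 CPM with sorbitol, a log2 fold change of −0.16 ± 0.27. RAD21 was 32.4 ± 8.08 and 20 ± 0.985 CPM, and its log2 change was −0.66 ± 0.38 (adjusted p = 0.31, edgeR). eGFP-YAP counts were 63 and 49 with vehicle and 18 and 21 with sorbitol, or 9.95 ± 0.384 and 14.2 ± 4.98 CPM, a log2 fold change of 0.47 ± 0.36 that became −0.97 under total-count scaling. H3K27ac was 28.0 ± 1.31 and 22.9 ± 0.0216 CPM, with both sorbitol libraries below both vehicle libraries and a log2 fold change of −0.29 ± 0.14 (adjusted p = 0.14, edgeR). The other intervals at MYC starts, MYC-3 just upstream and MYC-5 and MYC-6 in the gene body, had H3K27ac of 6.18 ± 1.44, 7.22 ± 0.272 and 7.94 ± 3.59 CPM with vehicle. Their log2 fold changes of −0.28 ± 0.31, 0.20 ± 0.26 and 0.01 ± 0.28 were within 1 standard error of 0. MYC-3, MYC-4 and MYC-5 overlap a CASC11 intron and MYC-6 a CASC11 exon, and without strand the reads of a shared interval belong to both genes.

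The 4 intervals farthest from MYC lie in PVT1, a noncoding gene downstream of MYC that is co-amplified with it in tumours and holds MYC enhancers. MYC-7 (chr8:127794052-127796157) covers the PVT1 start and the exon of MIR1204. It had the highest H3K27ac level of any member, per interval and per kb. H3K27ac counts there were 679 and 637 with vehicle and 794 and 647 with sorbitol, which after scaling were 107 ± 3.75 and 83.1 ± 3.78 CPM. Both sorbitol libraries lay below both vehicle libraries, and H3K27ac fell by 0.36 ± 0.08 on the log2 scale (adjusted p = 5.7e-04, edgeR). The fall was called without each library in turn and in all alternatives except the fit on all 16 libraries, where it was −0.21 (adjusted p = 0.53, edgeR). CTCF at MYC-7 was sparse, with counts of 30 and 15 with vehicle and 18 and 19 with sorbitol, a level per kb above that of only 1.19% of tested intervals. It rose to 9.32 ± 0.00695 CPM from 4.10 ± 0.783 CPM, which is 1.16 ± 0.44 on the log2 scale (adjusted p = 0.041, edgeR). Of 13 alternatives only 1, the size factors of DESeq2 in edgeR, kept the call, and the change was 0.17 under total-count scaling. This call was lost without any 1 of the 4 CTCF libraries, with adjusted p from 0.075 to 0.25 by edgeR.

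MYC-10 (chr8:127809713-127810518), in a PVT1 intron 74.7 kb from the MYC start, had the highest eGFP-YAP level per kb at these loci. Its eGFP-YAP counts were 98 and 102 with vehicle and 10 and 8 with sorbitol. The level with vehicle, 18.0 ± 3.00 CPM, exceeded that of 93.0% of tested eGFP-YAP intervals per kb, and with sorbitol it was 6.36 ± 0.575 CPM. Sorbitol lowered eGFP-YAP 2.84-fold there, a log2 fold change of −1.50 ± 0.38 (adjusted p = 0.018, edgeR). Without YAP1 vehicle replicate 1 the value was −1.66 and no longer called (adjusted p = 0.074, edgeR), and without vehicle replicate 2 it was −1.31 (adjusted p = 0.36, edgeR). H3K27ac at MYC-10 had no call. Its counts were 60 and 65 with vehicle and 130 and 116 with sorbitol, or 10.1 ± 0.676 and 14.2 ± 0.265 CPM, a log2 fold change of 0.49 ± 0.21 that missed the threshold (adjusted p = 0.088, edgeR). The difference between both responses, H3K27ac minus eGFP-YAP, was 2.34 ± 0.45 on the log2 scale (adjusted p = 6.0e-05, interaction test of edgeR). It was called in all 13 alternatives, with values from 2.21 to 3.56, while 6.27% of all tested intervals were called in that comparison and 1 of 23 tested members.

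Between the PVT1 start and MYC-10, H3K27ac rose at MYC-8 (chr8:127800891-127801204, PVT1 intron). The counts were 29 and 32 with vehicle and 81 and 73 with sorbitol, or 4.95 ± 0.394 and 8.91 ± 0.229 CPM, a log2 fold change of 0.84 ± 0.27 (adjusted p = 0.023, edgeR). The call was lost with DESeq2 and in the fit on all 16 libraries. Leaving out any 1 H3K27ac library gave 0.76 to 0.92 with adjusted p from 0.053 to 0.12 by edgeR, so the call rests on all 4. At MYC-9, also in an intron of PVT1, H3K27ac was 3.09 ± 0.72 and 4.60 ± 0.525 CPM, a log2 fold change of 0.58 ± 0.37 (adjusted p = 0.27, edgeR). In all 3 intronic sites both sorbitol libraries lay above both vehicle libraries for H3K27ac, while at the PVT1 start both lay below. How many of all tested intervals separate in this way was not counted. Over all tested intervals the median H3K27ac log2 fold change was 0.17 for distal and −0.13 for promoter intervals, so these directions are also those of the table. The hexamer GGAATG, which TEAD factors bind, was searched on both strands. It occurred 1 time each in MYC-8 and MYC-9 and was not among the letters of MYC-10 or MYC-7. Intervals of similar width hold it in 16.7%, 16.1%, 30.5% and 59.1% of cases for MYC-8, MYC-9, MYC-10 and MYC-7.

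**Figure D2:**
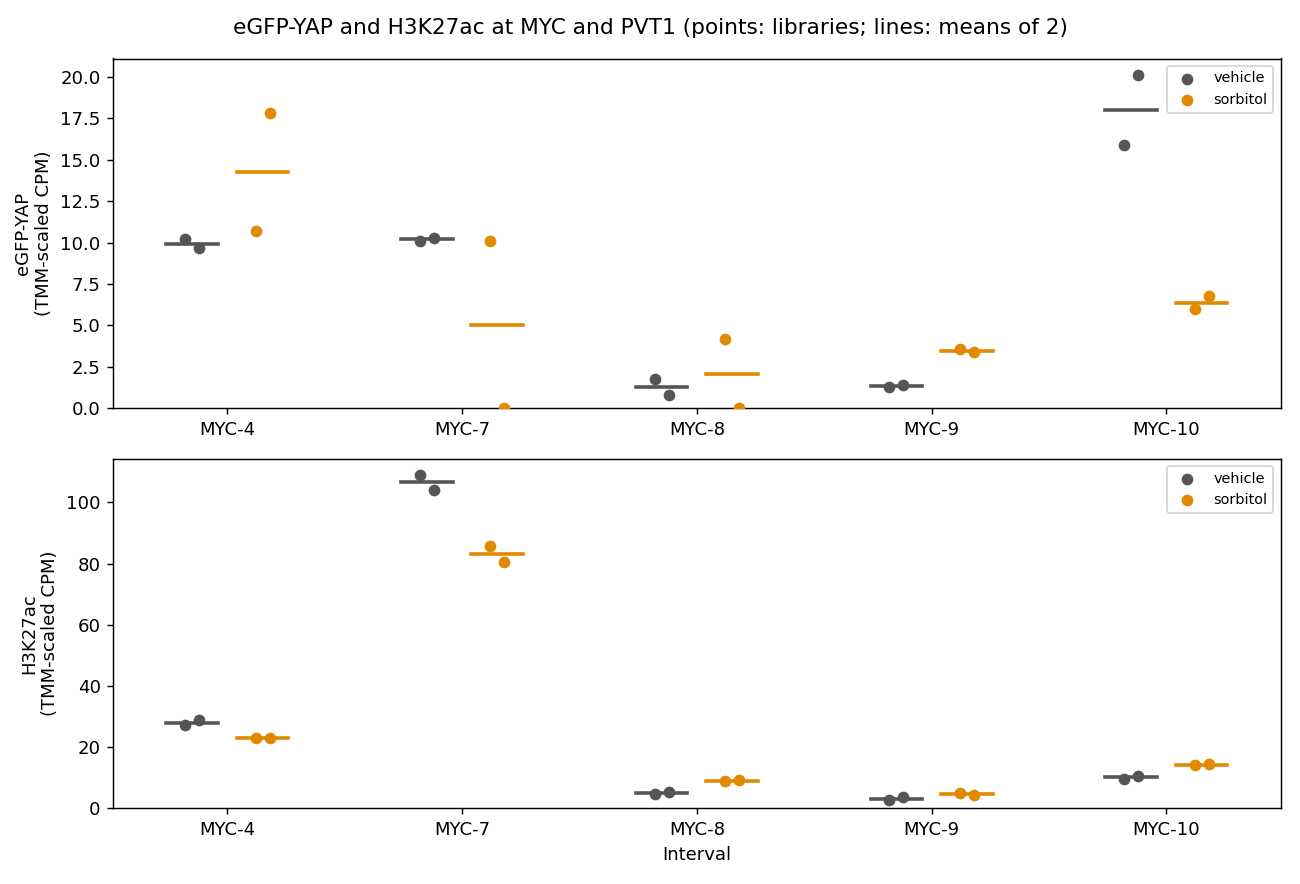
eGFP-YAP (top) and H3K27ac (bottom) at the MYC start (MYC-4) and the 4 PVT1 intervals, in TMM-scaled CPM on a linear axis. Points are libraries and lines the means of 2. At MYC-10 the eGFP-YAP mean goes from 18.0 to 6.36 CPM while the H3K27ac mean goes from 10.1 to 14.2 CPM.

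At MYCN, CTCF fell at the start site. MYCN-2 (chr2:15939612-15940664) spans the MYCN start, with untranslated and coding sequence, and an exon of the antisense noncoding gene MYCNOS. Its CTCF counts were 137 and 99 with vehicle and 9 and 16 with sorbitol, or 22.3 ± 1.52 and 6.25 ± 2.26 CPM. Both sorbitol libraries lay far below both vehicle libraries, and the 3.53-fold loss is −1.82 ± 0.33 on the log2 scale (adjusted p = 1.9e-04, edgeR). It was called in all 13 alternatives, with values from −2.79 to −1.49, and was the largest CTCF change in either direction among the tested members. This is the interval whose best CTCF match, shown above, has 3 mismatches.

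The other targets had no call at MYCN-2. RAD21 counts were 45 and 13 with vehicle and 11 and 12 with sorbitol, or 14 ± 3.48 and 12.2 ± 1.97 CPM, a log2 fold change of −0.23 ± 0.48 (adjusted p = 0.81, edgeR). H3K27ac was 12.5 ± 0.793 and 11.6 ± 3.02 CPM, a log2 fold change of −0.10 ± 0.22. The H3K27ac minus CTCF difference of 2.08 ± 0.42 was called in the main test (adjusted p = 8.8e-05, interaction test of edgeR) and in all 13 alternatives. The RAD21 minus CTCF difference of 1.67 ± 0.62 had an adjusted p of 0.23 by the same test, so a difference between both chromatin loop factors was not shown. eGFP-YAP was near the low end, with counts of 12, 11, 8 and 4 over the 4 libraries, and its own response was not tested.

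Farther into the gene, H3K27ac fell at MYCN-4 (chr2:15941548-15942511, untranslated and coding sequence, with a MYCNOS exon), the strongest H3K27ac site of the locus. The counts were 178 and 167 with vehicle and 152 and 158 with sorbitol, or 28.0 ± 0.982 and 18.0 ± 2.28 CPM, a log2 fold change of −0.64 ± 0.15 (adjusted p = 0.002, edgeR). Both sorbitol libraries were below both vehicle libraries. Without H3K27ac sorbitol replicate 1 the value was −0.50 (adjusted p = 0.051, edgeR), and with offsets corrected for GC content it was −0.35 (adjusted p = 0.10, edgeR). CTCF at MYCN-4 was 11.2 ± 2.23 and 9.67 ± 5.35 CPM with overlapping groups and a log2 fold change of −0.20 ± 0.39. At MYCN-5, in the intron that follows, CTCF was 4.38 ± 0.492 and 4.77 ± 0.89 CPM, so among the 3 intervals at MYCN tested for CTCF 1 changed. The small intronic interval MYCN-3 had H3K27ac of 3.65 ± 0.0781 and 2.21 ± 0.219 CPM (log2 fold change −0.73 ± 0.41, adjusted p = 0.21, edgeR).

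At MYCL, CTCF moved in both directions. MYCL-8 (chr1:39900720-39902686) spans the MYCL start, with untranslated and coding sequence. CTCF counts there were 188 and 111 with vehicle and 74 and 113 with sorbitol. Against the scaled depth of 6.44 and 4.23 M counts of the vehicle libraries and 1.93 and 2.04 M of the sorbitol libraries, these are 27.7 ± 2.07 and 46.9 ± 12.1 CPM. CTCF rose there by a log2 fold change of 0.75 ± 0.20 (adjusted p = 0.0046, edgeR). The direction depended on scaling: it was −0.23 under total-count scaling and −0.11 with GC-corrected offsets. Without CTCF sorbitol replicate 2, the higher of its pair, it was 0.46 (adjusted p = 0.13, edgeR). RAD21 in that same sorbitol replicate number was also the higher one, with 38 counts against 9, and gave 26.0 ± 24.2 CPM against 16.9 ± 1.16 CPM with vehicle. eGFP-YAP at MYCL-8 was 14 ± 0.813 and 17.7 ± 7.03 CPM and H3K27ac 36.7 ± 4.45 and 30.1 ± 2.08 CPM, with log2 fold changes of 0.38 ± 0.31 and −0.29 ± 0.13 and no call.

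Upstream of MYCL, the distal site MYCL-9 (chr1:39919259-39919945, intergenic, 17.3 kb before the gene start) lost CTCF. The counts were 103 and 92 with vehicle and 9 and 16 with sorbitol, or 18.9 ± 4.08 and 6.25 ± 2.26 CPM, with no overlap between groups. The 2.96-fold loss is a log2 fold change of −1.57 ± 0.36 (adjusted p = 0.0016, edgeR) and was called in all 13 alternatives, with values from −2.54 to −1.04. RAD21 counts at MYCL-9 were 19 and 8 with vehicle and 2 and 7 with sorbitol, too few for a test, and H3K27ac had 1 to 12 counts.

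Besides MYC-2, the sites with an unbroken CTCF consensus were MYCL-1 and MYCL-13. MYCL-1 (chr1:39816411-39817380, an exon of the noncoding gene LINC02811, downstream of MYCL) had the highest CTCF level of the locus with vehicle, both per interval and per kb, with counts of 252 and 175 with vehicle and 56 and 77 with sorbitol. These are 40.3 ± 1.62 and 33.4 ± 6.23 CPM, a difference of −0.26 ± 0.19 on the log2 scale (adjusted p = 0.28, edgeR). RAD21 at MYCL-1 had counts of 57 and 13 with vehicle and 6 and 0 with sorbitol, or 16.2 ± 6.58 and 2.96 ± 4.18 CPM. The log2 fold change of −2.39 ± 0.81 was not called (adjusted p = 0.11, edgeR). It was called in 4 of 13 alternatives, with total-count scaling (adjusted p = 0.049), with no count filter (just under the threshold), in the fit on all 16 libraries (0.0049) and without RAD21 sorbitol replicate 1 (0.0013), all by edgeR. Without sorbitol replicate 2 it was −1.38, and without sorbitol replicate 1, where the remaining sorbitol library has 0 counts, the fitted −7.73 depends on the prior count and is no bound. MYCL-13 (chr1:39973437-39973948, intergenic) had CTCF of 12.7 ± 0.244 and 15.8 ± 2.61 CPM and a log2 fold change of 0.32 ± 0.30 (adjusted p = 0.41, edgeR). With GC-corrected offsets it was 0.94 and called higher (adjusted p = 0.02, edgeR), also with the replicate block added (0.93, adjusted p = 0.034, edgeR). Under total-count scaling the 3 sites without a mismatch, MYC-2, MYCL-1 and MYCL-13, were below 0, and MYC-2 and MYCL-1 were then called lower. Over all tested intervals with an unbroken consensus, 3391 for CTCF and 1049 for RAD21, the median log2 fold change was −0.09 for CTCF and −0.63 for RAD21. CTCF was called lower at 17.4% of intervals with no mismatch and at 17.9% of those with 2 or more. With at most 1 mismatch, the consensus as defined here, it was called lower at 26.8% of 12217 intervals. The median log2 fold change was −0.38 there and 0.12 at intervals with 2 or more mismatches.

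**Figure D3:**
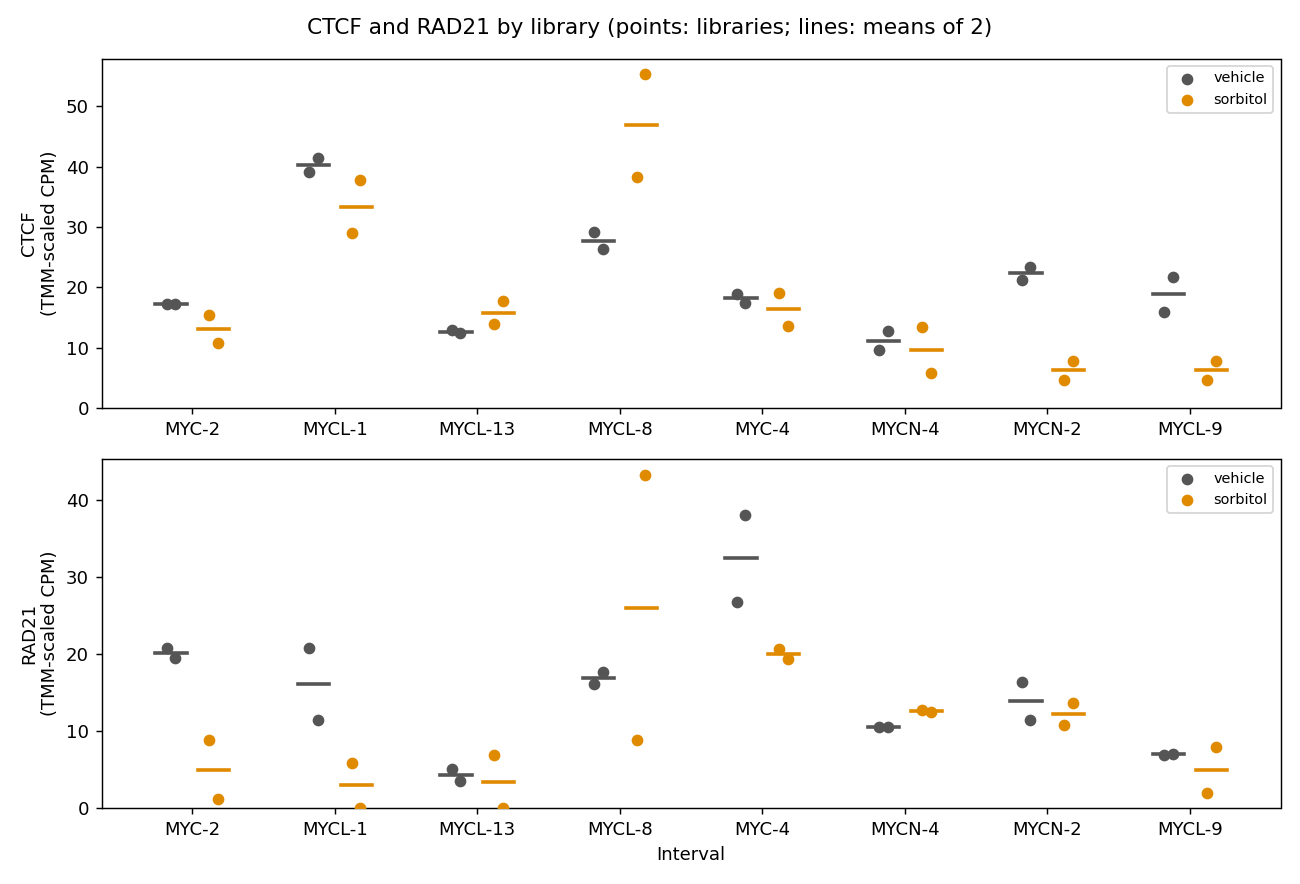
CTCF (top) and RAD21 (bottom) in TMM-scaled CPM on a linear axis at 8 member intervals, ordered with the 4 that hold the CTCF consensus first. Points are libraries and lines the means of 2. CTCF at MYCN-2 and MYCL-9 goes from 22.3 and 18.9 CPM to 6.25 CPM at each, and RAD21 at MYC-2 and MYCL-1 goes from 20.2 and 16.2 CPM to 5.00 and 2.96 CPM without a call.

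The gene neighbours of MYCL added 1 further CTCF call. MYCL-10 (chr1:39954912-39955829), the start of MFSD2A, which encodes a lipid transporter, had counts of 8 and 15 with vehicle and 20 and 11 with sorbitol. CTCF rose there to 7.87 ± 3.50 CPM from 2.39 ± 1.63 CPM, by 1.78 ± 0.60 on the log2 scale (adjusted p = 0.021, edgeR), from a level per kb above that of only 2.81% of tested intervals. It was 1.11 without CTCF vehicle replicate 1 and 1.25 without CTCF sorbitol replicate 1, neither called. The MYCL-10 rise was called in 6 of 13 alternatives. DESeq2, total counts with and without dominant intervals, and GC correction with and without the replicate block lost the call. At the start of TRIT1, a tRNA modification enzyme, H3K27ac in MYCL-6 was 24.9 ± 3.46 and 23.2 ± 1.81 CPM. The other MYCL intervals, in TRIT1 and MFSD2A introns and between genes, had at most 2.50 CPM of CTCF with vehicle and no call for any target.

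Promoter and distal CTCF sites were also compared inside each library, as the log2 ratio of the mean count per promoter interval to the mean count per distal interval of a locus, which needs no scaling between libraries. At MYCL the ratio was 1.26 and 1.10 with vehicle and 1.70 and 1.89 with sorbitol, a change of 0.62 with a replicate SD of 0.12 and no overlap between groups. Leaving out each library gave 0.52 to 0.71. The change was 1.04 with the MYCL promoter as the only promoter interval, and 0.01 against MYCL-13, the only distal interval with the consensus. MYCL-9 alone held 103 of 228 and 92 of 172 distal counts with vehicle, and 9 of 55 and 16 of 68 with sorbitol. MYCL-1 held 252 of 467 and 175 of 316 promoter counts with vehicle. The MYCL ratio thus leans on single intervals and does not describe the locus as a whole. It was not computed without MYCL-9. At MYC the ratio was 2.09 and 2.06 with vehicle and 1.93 and 1.36 with sorbitol, a change of −0.42 with a replicate SD of 0.28. At MYCN no such ratio was formed, since the 2 distal intervals together had 1, 1, 0 and 4 CTCF counts in the 4 libraries. The smallest p that a two-sided exact permutation test of 2 against 2 libraries allows is 0.33, above the threshold of 0.05, and no p is given for these changes. Among the tested members the median CTCF log2 fold change was −0.01 over 10 promoter intervals and 0.37 over 4 distal ones, against 0.42 over 17540 promoter and −0.54 over 21721 distal intervals of the whole table.

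Differences between targets were tested over the 8 libraries of each pair. The H3K27ac and CTCF responses differed at 6 of 26 tested members, against 21.6% of all tested intervals. The difference, H3K27ac minus CTCF, was above 0 at MYC-2, MYCN-2 and MYCL-9 and below 0 at MYC-7, MYCL-8 and MYCL-10. This split of 3 and 3 depended on scaling. Total counts gave 6 above 0 (MYC-2, MYC-4, MYCN-2, MYCL-1, MYCL-9 and MYCL-13) and 0 below, total counts without dominant intervals 3 and 0, and GC-corrected offsets 1 and 1. The eGFP-YAP and CTCF responses differed at 3 of 17, against 11.6%, namely MYC-7, MYCN-2 and MYCL-1. In these tests the filter on low counts ran over both targets of a pair. H3K27ac at MYCL-9 and eGFP-YAP at MYCN-2 did not pass it alone and entered through the CTCF counts. The differences at these sites therefore reflect the CTCF falls and show no response of the other target. RAD21 and CTCF differed at 0 of 18 by edgeR, the tool run for this comparison, against 0.83%, with 3 at an unadjusted p under 0.05. At MYC-2 and MYCL-1, sites with an unbroken consensus, the RAD21 minus CTCF differences were −1.44 ± 0.68 (adjusted p = 0.39, edgeR) and −2.07 ± 0.69 (adjusted p = 0.17, edgeR).

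Promoter intervals of other genes most like the members were ranked by Pearson's r of log2 CPM over the 16 libraries, as a description in which points share libraries and targets. For MYC-4, among 9042 compared, the nearest were RIMBP3B (r = 0.976), an interval shared by RIMBP3C and UBE2L3 (r = 0.954) and RIMBP3 (r = 0.95), near-identical gene copies on chromosome 22 whose counts cannot be told apart with certainty. For MYCN-4 they were ROR2 (r = 0.872), TSC22D1 (r = 0.866) and FRMPD3 (r = 0.865), and for MYCL-8 they were FLT3LG (r = 0.939), GLIS2 (r = 0.936) and ARHGAP39 (r = 0.932).

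The partners of MYC were read at their own promoters. The MAX network list holds MAX, the shared dimer partner, the repressors MXD1, MXI1, MXD3, MXD4, MNT and MGA that compete with MYC for it, and the parallel pair MLX with MLXIP and MLXIPL. CTCF rose at 13 and fell at 1 of its 23 tested promoter intervals, with a median log2 fold change of 1.18, against a median of 0.42 and 39.5% called over all tested promoter intervals. H3K27ac fell at 15 and rose at 1 of 25, median −0.52, against −0.13 and 36.8%. By gene, where 1 called interval sufficed, CTCF was called higher at 7 of 10 and H3K27ac lower at 6 of 10. The matching share over all genes was not computed, so these gene counts have no background to be read against. The MNT gene alone supplied 6 of the intervals, so the interval counts are not independent of each other. At an MNT interval (chr17:2396844-2397123) CTCF rose from 2.46 ± 0.194 to 12.5 ± 2.38 CPM (log2 fold change 2.34 ± 0.46) and eGFP-YAP from 2.40 ± 0.0449 to 13.4 ± 1.33 CPM (2.46 ± 0.49). At another MNT interval (chr17:2393656-2394215) H3K27ac fell from 26.3 ± 2.79 to 6.46 ± 0.885 CPM (−2.03 ± 0.20 on the log2 scale). At MLX CTCF rose from 5.87 ± 0.398 to 27.2 ± 1.02 CPM, while at 1 of 2 MLXIP intervals (chr12:122130916-122131382) it fell from 10.0 ± 2.10 to 3.31 ± 1.90 CPM, with a log2 fold change of 1.25 ± 0.31 at the other (adjusted p = 0.0033, edgeR). MAX went against the list for H3K27ac, which rose from 59.4 ± 4.27 to 83.6 ± 2.66 CPM (log2 fold change 0.49 ± 0.09).

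Among genes that MYC is known to activate, CTCF rose at 11 and fell at 1 of 21 tested promoter intervals (57.1% called, median 0.73). Over all tested promoter intervals 39.5% were called, 29.1% higher and 10.3% lower, with a median of 0.42. H3K27ac fell at 13 and rose at 1 of 23 (60.9% called, median −0.33), against 36.8% of all promoter intervals, 26.9% lower and 9.94% higher, with a median of −0.13. The list holds 16 genes, of which 15 had a promoter interval, among them nucleolar and metabolic genes such as NCL, NPM1, ODC1 and LDHA. At an interval of RCC1, the exchange factor for the nuclear GTPase Ran (chr1:28505477-28506778), CTCF counts were 33 and 15 with vehicle and 66 and 66 with sorbitol. CTCF rose there from 4.33 ± 1.11 to 33.3 ± 1.25 CPM and H3K27ac fell from 111 ± 6.28 to 54.4 ± 0.567 CPM. The other RCC1 interval (chr1:28517698-28519413) changed less. Its CTCF rose from 60.3 ± 9.72 to 97.5 ± 3.30 CPM and its H3K27ac fell from 78.6 ± 0.329 to 56.9 ± 0.986 CPM. At ODC1, the rate-limiting enzyme of polyamine synthesis, CTCF rose from 9.73 ± 1.38 to 43.4 ± 3.76 CPM and H3K27ac fell from 120 ± 0.741 to 62.1 ± 1.41 CPM. RAD21 rose at 1 of 14 tested intervals of the MAX network, in MNT, by 1.31 ± 0.34 (adjusted p = 0.048, edgeR), against 3.25% of all tested promoter intervals called. That call was lost with DESeq2, total counts with and without dominant intervals, the replicate block, GC correction with and without the block, and without RAD21 vehicle replicate 1 or sorbitol replicate 1. RAD21 rose at ODC1 as well, by a log2 fold change of 1.41 ± 0.36 (adjusted p = 0.046, edgeR), 1 of 18 tested for RAD21. The ODC1 call was lost with total counts, with and without dominant intervals, and with GC correction, with and without the block. CTCF fell at NME1 from 19.5 ± 0.551 to 8.62 ± 3.17 CPM, and H3K27ac rose at 1 of 2 intervals of HSPD1, a mitochondrial chaperonin, from 89.3 ± 0.941 to 105 ± 0.494 CPM. The HSPD1 call was lost with DESeq2, in the fit on all 16 libraries and without any 1 of the 4 H3K27ac libraries.

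At 12 genes that regulate MYC or act with it, CTCF was called at 5 of 17 tested promoter intervals (29.4%), 4 higher and 1 lower, with a median of 0.43. That share was below the 39.5% of all tested promoter intervals, and the median was near theirs of 0.42. H3K27ac rose at 2 and fell at 6 of 20 (40%, median −0.12), near the 36.8% and −0.13 of all promoter intervals. CTCF rose at WDR5, a MYC cofactor, by 1.53 ± 0.38 on the log2 scale (adjusted p = 0.0029, edgeR), and its sorbitol level was 14.4 ± 3.03 CPM. H3K27ac rose at 2 of 3 tested intervals of FBXW7, the ubiquitin ligase subunit that marks MYC for degradation, by 0.62 ± 0.08 and 0.60 ± 0.19. It fell at 1 of 2 tested intervals each of SKP2 and PIM1, by 0.80 ± 0.24 and 0.68 ± 0.08 on the log2 scale. The other interval had 0.20 ± 0.08 (adjusted p = 0.075, edgeR) at SKP2 and 0.67 ± 0.29 (adjusted p = 0.087, edgeR) at PIM1. eGFP-YAP was called higher at 3 of 21 intervals of the MAX network and lower at 0, against 4.3% of all tested promoter intervals called, a split that became 0 higher and 16 lower with total-count scaling. The CTCF counts depended on scaling. With total-count scaling they were 3 higher and 6 lower for the MAX network (median 0.20), 3 and 5 for MYC-activated genes (−0.25) and 0 and 6 for regulators (−0.55). With GC-corrected offsets they were 3 and 5 (0.31), 4 and 2 (0.19), and 0 and 2 (−0.05). For H3K27ac, total-count scaling gave 2 higher and 15 lower for the MAX network, 2 and 8 for MYC-activated genes and 6 and 6 for regulators. GC correction gave 2 and 12, 3 and 5, and 5 and 3.

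**Figure D4:**
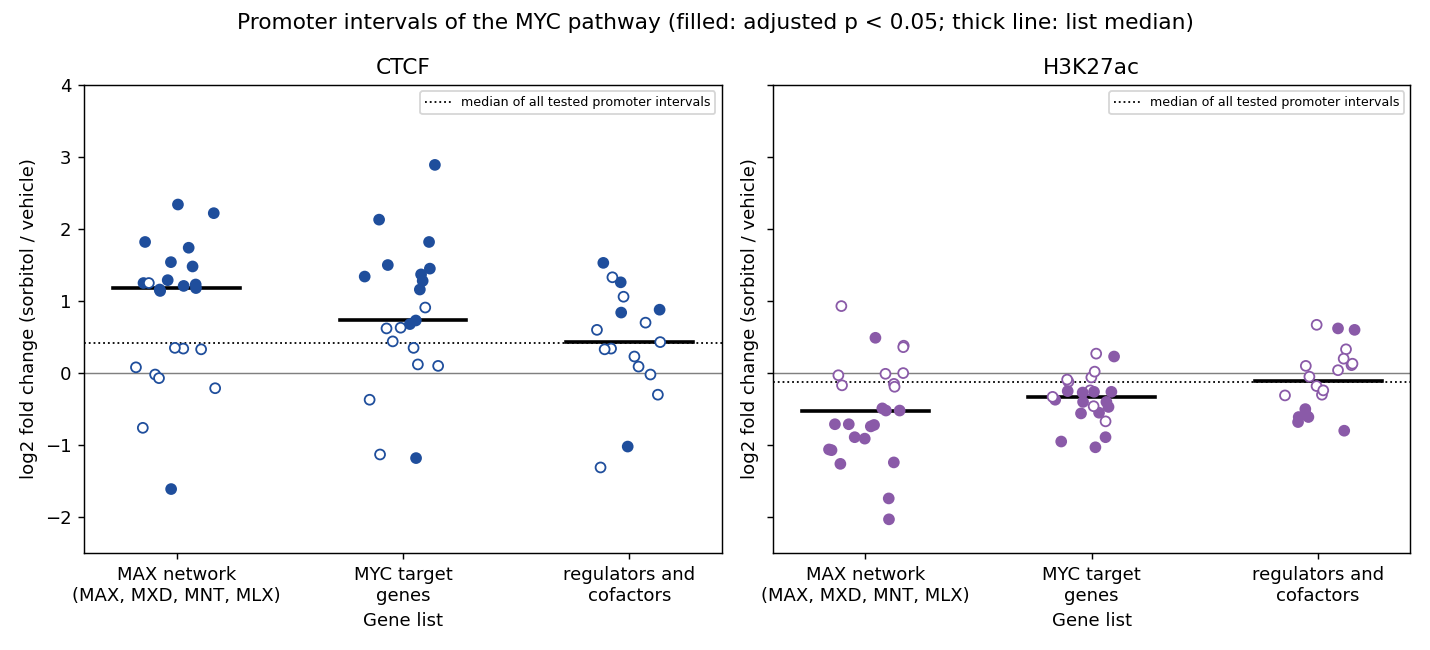
Log2 fold changes, sorbitol over vehicle, of CTCF (left) and H3K27ac (right) at tested promoter intervals of the MAX network, MYC-activated genes, and regulators and cofactors, all on a common y axis. Each point is an interval, filled where called, thick lines are list medians, and the dotted line is the median of all tested promoter intervals (0.42 for CTCF, −0.13 for H3K27ac). For CTCF the medians are 1.18, 0.73 and 0.43, and for H3K27ac −0.52, −0.33 and −0.12.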

How the data were processed

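The deposited values are raw counts of CUT&Tag reads per peak interval, in 1 table of 74404 intervals shared by 16 libraries, and were not scaled between libraries. Per the submitters' processing notes, the tools were Trim Galore, FastQC, BWA 0.7.17, SAMtools, Picard, bedtools 2.31.1 and MACS2 2.2.6, with hg38 as the build. Their order and settings, and whether peaks were called on pooled libraries, are not given in the sources used here. All intervals lay within hg38 chromosome lengths. Columns were matched to samples by target, treatment and replicate number, and 0 sample columns were left unmapped. Column names give vehicle an earlier time point than sorbitol.

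Each target was fitted alone on its 4 libraries with edgeR 4.0.16 in R 4.3.3 (robust quasi-likelihood fit, two-sided, TMM scaling, filterByExpr with a minimum of 10 counts). Benjamini-Hochberg adjustment covered all tested intervals, with a threshold of 0.05. Standard errors were derived from the F statistic. Differences between targets are interaction tests over 8 libraries. Sequences and annotation came from hg38, RefSeq and GENCODE release 44. The alternatives were DESeq2 1.42.0 with a local dispersion trend, its size factors, total-count scaling with and without dominant intervals (mitochondrial, unplaced contigs, the YAP1 gene), no count filter, 1 fit on all libraries, a replicate block, GC-corrected offsets (lowess, span 0.3), a 50 kb window and leaving out each library. For the interaction tests, leaving out libraries was added after the data were seen.

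Named intervals are those at member starts, the highest and the most changed interval per gene and target, consensus distal sites, and the called extremes of 3 gene lists. Values at some genes that this rule names are not reported here. The tests were checked on simulated counts. The members, lists and tests were chosen with earlier results of these data known. Replicates differed by more than counting noise, and depth limits the precision at low counts.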

Additional observations from a re-analysis of the deposited data

Results flagged for a closer look

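At 10 points the sorbitol responses of 2 targets differed at the same interval by the interaction test of edgeR, at an adjusted p under 0.05 over all tested intervals of the pair. Values are differences of log2 fold changes, the first target minus the second.

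For H3K27ac minus CTCF, MYCN-2 at the MYCN start had 2.08 (adjusted p = 8.8e-05, edgeR), from a CTCF fall beside an H3K27ac change of −0.10. The distal site MYCL-9 had 2.59 (adjusted p = 0.014, edgeR) and the CTCF site before MYC, MYC-2, had 1.75 (adjusted p = 0.016, edgeR). Leaving out 1 library gave 1.64 to 4.28 at MYCL-9, called in 5 of 8 such fits, and 1.08 to 2.39 at MYC-2, called in 4 of 8. With GC-corrected offsets neither was called, at 1.98 (adjusted p = 0.08, edgeR) and 1.41 (adjusted p = 0.067, edgeR). H3K27ac at MYCL-9 and MYC-2 was under 4 CPM on average in either group. At MYCL-9 H3K27ac had 1 to 12 counts and did not pass the filter on low counts alone. The interval entered this test through its CTCF counts, so the value there reflects the CTCF fall and shows no H3K27ac response. The PVT1 start MYC-7 had −1.14 (adjusted p = 0.019, edgeR), the MYCL start MYCL-8 had −0.68 (adjusted p = 0.03, edgeR) and the MFSD2A start MYCL-10 had −1.54 (adjusted p = 0.031, edgeR). These were called in 8, 5 and 7 of 13 alternatives. The value at MYCL-8 became 0.09 under total-count scaling and 0.29 with GC-corrected offsets.

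For eGFP-YAP minus CTCF, MYC-7 had −2.13 (adjusted p = 0.044, edgeR), MYCN-2 had 2.66 (adjusted p = 0.017, edgeR) and MYCL-1 had 1.38 (adjusted p = 0.048, edgeR). eGFP-YAP at MYCN-2 had counts of 12 and 11 with vehicle and 8 and 4 with sorbitol. It did not pass the filter on low counts alone and entered through the CTCF counts, so that value reflects the CTCF fall. At MYC-7 eGFP-YAP had 17 counts in sorbitol replicate 1 and 0 in replicate 2, and without replicate 2 the difference was −1.32 (adjusted p = 0.20, edgeR). Of 13 alternatives the difference was called in 6 at MYC-7, 9 at MYCN-2 and 2 at MYCL-1. For H3K27ac minus eGFP-YAP, MYC-10 had 2.34 (adjusted p = 6.0e-05, edgeR), called in 13 of 13 alternatives.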

How the results depend on the processing

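The CTCF falls at MYCN-2 and MYCL-9, and the differences H3K27ac minus CTCF at MYCN-2 and H3K27ac minus eGFP-YAP at MYC-10, kept direction and call in all 13 alternatives each. CTCF was called at 5 members, at 3 with DESeq2, the fit on all 16 libraries, GC-corrected offsets, the replicate block with GC correction and the 50 kb window, and at 3 to 4 without 1 library. With total-count scaling 6 members were called for CTCF, 0 higher and 6 lower, and without dominant intervals 4 lower. RAD21 had 0 calls, 2 with total-count scaling, 1 with no count filter, 2 in the fit on all libraries and 0 to 3 without 1 library, the 3 being without sorbitol replicate 1. eGFP-YAP had 1, 4 with total-count scaling, 0 in the 50 kb window and 0 to 2 without 1 library. H3K27ac had 3, 0 in the fit on all libraries, 1 in the 50 kb window and 1 to 4 without 1 library, the 1 being without sorbitol replicate 1. H3K27ac minus CTCF had 6, also 6 with total counts but 6 above 0 and 0 below, 3 with total counts without dominant intervals, 2 with GC correction and 2 to 6 without 1 library. H3K27ac minus eGFP-YAP had 1, 4 with total-count scaling, 2 without dominant intervals and 1 to 2 without 1 library. For eGFP-YAP minus CTCF, which had 3, and RAD21 minus CTCF, which had 0, leaving out 1 library gave 0 to 2 and 0 to 1. The MYCL promoter to distal ratio changed by 0.62, and by 1.04 with the MYCL promoter alone, 0.01 against the consensus distal site and 1.85 in the 50 kb window. The MYC ratio ranged from −0.71 to −0.14 without 1 library. The causes were not tested.

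Log2 fold changes that changed sign were these. With total-count scaling, CTCF was −0.57 at MYC-3, −0.67 at MYCL-13, −0.23 at MYCL-8 and −0.84 at MYCN-5. RAD21 was −0.44 at MYC-7 and −0.34 at MYCN-4. eGFP-YAP was −0.19 at MYC-2, −0.97 at MYC-4, −0.13 at MYCL-1, −1.03 at MYCL-8 and −1.37 at MYCN-4, H3K27ac was 0.04 at MYCN-2, and H3K27ac minus CTCF was 0.09 at MYCL-8. Without dominant intervals, CTCF was −0.03 at MYC-3, −0.13 at MYCL-13 and −0.30 at MYCN-5, RAD21 −0.08 at MYC-7, eGFP-YAP −0.21 at MYC-4, −0.28 at MYCL-8 and −0.62 at MYCN-4, and H3K27ac 0.04 at MYCN-2. With GC-corrected offsets, CTCF was −0.15 at MYC-3 and −0.11 at MYCL-8, H3K27ac 0.05 at MYCL-8 and 0.10 at MYCN-2, RAD21 −0.06 and eGFP-YAP −0.05 at MYCN-4, and H3K27ac minus CTCF 0.29 at MYCL-8. With no count filter, eGFP-YAP was −0.02 at MYCL-8 and −0.34 at MYCN-4 and CTCF −0.06 at MYCN-5. In the fit on all libraries these were −0.05, −0.41 and −0.05, and H3K27ac at MYCN-2 was 0.05. Without 1 library, CTCF ranged from −0.28 to 0.90 at MYC-3, −0.41 to 0.07 at MYC-4, −0.90 to 0.29 at MYCN-4 and −0.07 to 0.32 at MYCN-5. H3K27ac ranged from −0.04 to 0.40 at MYC-5, −0.40 to 0.56 at MYC-6 and −0.39 to 0.14 at MYCN-2. RAD21 ranged from −0.80 to 1.46 at MYCL-8 and −0.30 to 0.09 at MYCN-2, and eGFP-YAP from −0.24 to 0.63 at MYCL-8 and −1.06 to 0.71 at MYCN-4.

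Same-numbered libraries did not deviate together (correlations −0.0094 for CTCF, −0.0038 for RAD21, 0.0057 for eGFP-YAP and −0.0069 for H3K27ac, 2 pairs each), so the replicate numbers were not taken as pairing. With the replicate block 4 members were called for CTCF, 0 for RAD21, 1 for eGFP-YAP and 3 for H3K27ac. The replicate block with GC correction gave sign changes of −0.16 at MYC-3 and −0.13 at MYCL-8 for CTCF, 0.05 at MYCL-8 and 0.08 at MYCN-2 for H3K27ac, −0.07 at MYCL-8 and −0.06 at MYCN-4 for RAD21, and −0.10 at MYCN-4 for eGFP-YAP.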

Other observations

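The H3K27ac and eGFP-YAP values below are from intervals outside the promoters that had few counts of these targets, and carried no call. At MYCN, the intergenic intervals MYCN-1 and MYCN-6, the former before and the latter 44.7 kb after the gene start, had H3K27ac of 0.975 ± 0.239 and 1.22 ± 0.332 CPM with vehicle and 2.40 ± 0.646 and 2.66 ± 1.13 CPM with sorbitol (SD, n = 2). In both, each sorbitol library was above each vehicle library, with log2 fold changes of 1.28 ± 0.56 (SE, adjusted p = 0.095, edgeR) and 1.13 ± 0.53 (adjusted p = 0.12, edgeR). How many of all tested intervals separate in this way was not counted, here or for the other separated groups described above. Over all tested distal intervals the median H3K27ac log2 fold change was 0.17, in the same direction. MYCL-13, the consensus CTCF site beyond MFSD2A, had H3K27ac counts of 6 and 0 with vehicle. With sorbitol the counts were 16 and 13, and the log2 fold change was 1.75 ± 0.75 (adjusted p = 0.089, edgeR). Without H3K27ac vehicle replicate 2 it was 0.77 (adjusted p = 0.55, edgeR). Without vehicle replicate 1 it was called (adjusted p = 0.012, edgeR), but the fitted 6.72 stands against a vehicle library with 0 counts and is no bound. Its neighbour MYCL-12 had H3K27ac of 2.59 ± 0.892 and 1.89 ± 0.385 CPM. The eGFP-YAP interval MYCL-7 had counts of 13 and 12 with vehicle and 2 and 2 with sorbitol, or 2.24 ± 0.184 and 1.44 ± 0.354 CPM.

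The E-box CACGTG occurred 1 time in MYC-7, at the PVT1 start, and 1 time in MYCL-8, at the MYCL start, and in no other member interval. It was present in 9.62% of all intervals and in 16.6% of promoter intervals.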
